A study of Rattus norvegicus with 10 samples.

Results

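The enzymes that dispose of superoxide, peroxides and reactive electrophiles were followed as mRNA in rat milk whey and serum. The group was defined by gene symbol, with earlier results of these data known. It takes in the superoxide dismutases, catalase, glutathione peroxidases, peroxiredoxins, thioredoxins and their relatives. The enzymes of glutathione synthesis and recycling, the glutathione S-transferases, Nqo1 and the heme oxygenases also belong to the group. It comprised 81 probes for 63 genes, of 41012 non-control probes on the array. The milk came from 3 dams of the inbred strain F344/N, sampled at d 2, d 9 and d 16 after birth of the litter, and the serum from the same animals at d 21. Every dam had been kept from her litter, given oxytocin and lightly anesthetized before milking. Whey, the fluid left once fat, cells and casein are spun out, had 1 array per dam and day, whereas the serum RNA of the 3 dams was mixed on 1 array and has no replicate.

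Superoxide dismutases turn superoxide into hydrogen peroxide, and catalase, glutathione peroxidases and peroxiredoxins then break the peroxide down. Glutathione peroxidases draw on glutathione, and most peroxiredoxins on thioredoxin, and both carriers are brought back to their reduced form with NADPH. Glutathione S-transferases join glutathione to reactive compounds, and the factor Nrf2 (Nfe2l2) is known to switch on many of these genes through the antioxidant response element. The mammary gland makes fat and protein at a high rate during lactation, and milk is known to contain several of these enzymes as proteins.

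Each probe is a 60-base oligonucleotide, and its position is given on the rat build rn4 as the array files list it. For 25 of the 81 probes that position spans more than the length of the probe, so the listed match is interrupted on the genome, as for a probe that crosses an exon junction. Of these 25 probes 18 were detected in whey, and of the other 56 probes 37 were detected. A probe counts as detected where any array of a group showed it well above background and with a processed signal over 20. The probes of this kind that changed between days are shown, because they give the bases against which those changes were read. A Txnrd1 probe of this kind that did not pass the test is shown with them, as it stood in for its gene among 4 probes.
Cat, chr3:88683063-88685007, plus strand: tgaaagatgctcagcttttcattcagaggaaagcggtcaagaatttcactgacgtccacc
Gss, chr3:146058010-146059080, minus strand: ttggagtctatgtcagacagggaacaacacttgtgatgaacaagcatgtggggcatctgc
Prdx1, chr5:136983425-136984996, plus strand: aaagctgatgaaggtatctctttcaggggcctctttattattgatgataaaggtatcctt
Mgst2, chr2:140567741-140568393, plus strand: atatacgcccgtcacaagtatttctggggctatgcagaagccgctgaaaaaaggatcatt
Gstp1, chr1:206629144-206629301, minus strand: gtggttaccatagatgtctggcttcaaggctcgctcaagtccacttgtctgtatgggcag
Txnrd1, chr7:23073062-23074940, minus strand: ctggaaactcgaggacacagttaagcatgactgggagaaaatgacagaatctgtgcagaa
These 6 sequences are the oligonucleotides as printed on the array. Probes of different member genes shared at most 11 identical bases in a row, in the pair of Cat and Txndc1, so closely related transferases were read by distinct oligonucleotides. Whether a transcript of a relative bound to a probe was not tested. The probe that the files name Gsta3 carries an accession that RefSeq (assembly GRCr8) now lists as Gsta1, and it is called Gsta3 here.

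All values below are log2 of the processed signal, quantile normalized over the 10 arrays, and levels of different probes are not compared. The arrays differed in brightness, with a 75th percentile of the processed signal between 12.5 and 83.4 on the whey arrays and 4.09 on the serum array. Between 45 and 57 of the 81 member probes were well above background on a whey array and 33 on the serum array. Of the d 2 arrays, those of dams 1 and 2 shared slide 1, and that of dam 3 was on slide 2 with all d 9 arrays. The d 16 arrays and serum were on slide 3, which had a later scan. For d 16 against d 2 or d 9, slide and day therefore cannot be told apart. The casein, Wap and Lalba probes, which mark mammary epithelium, were well above background on all 9 whey arrays. The albumin and other liver probes had 0 of 18 detected in whey, and of the erythroid probes 1 of 5 was.

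Whey held most of these transcripts on every day. By the rule above, 55 of the 81 member probes (67.9%, 43 genes) were detected in whey, against 41.1% of all probes. The count was 47 on d 2, 54 on d 9 and 51 on d 16, and 46 were detected on all 3 days. Well above background on all 9 whey arrays were 44 member probes (54.3%), against 23.9% of all probes. Serum had 20 detected member probes (24.7%, 16 genes), against 8.6% of all probes. The superoxide dismutases (4 of 4 probes), catalase (1 of 1), peroxiredoxins (6 of 6), the genes of glutathione synthesis and recycling (4 of 4) and the microsomal transferases (4 of 4) were detected in full, while 10 of 19 probes of cytosolic transferases, 19 of 28 of thioredoxins and relatives and 4 of 11 of glutathione peroxidases were.

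No probe passed the rule in whey for 20 genes, which were Nqo1, Gsta2, Gstm1, Gstm2, Gstm3, Gstm5, Gstm6l, Gsto2, Gstt3, Gpx3, Gpx5, Gpx6, Gpx7, Gpx8, Txndc1, Txndc3, Txndc8, Txndc13, Txndc16 and Txnrd3. Of the 26 undetected probes, 17 were well above background on no array at all. Several detected members rested on 1 array. Gclc and Gclm, which encode the catalytic and modifier subunits of the rate-limiting enzyme of glutathione synthesis, were each well above background on d 9 dam 3 alone, the brightest whey array, at 3.14 and 3.71. The thioredoxin relative Txndc2 was well above background on d 9 dam 2 alone, at 4.19. Gpx2, a glutathione peroxidase known from the gut lining, read 6.06 on d 9 dam 1 and between 1.64 and 3.41 on the other 8 whey arrays. Without d 9 dam 3 the number of detected members was 53.

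**Figure D1:**
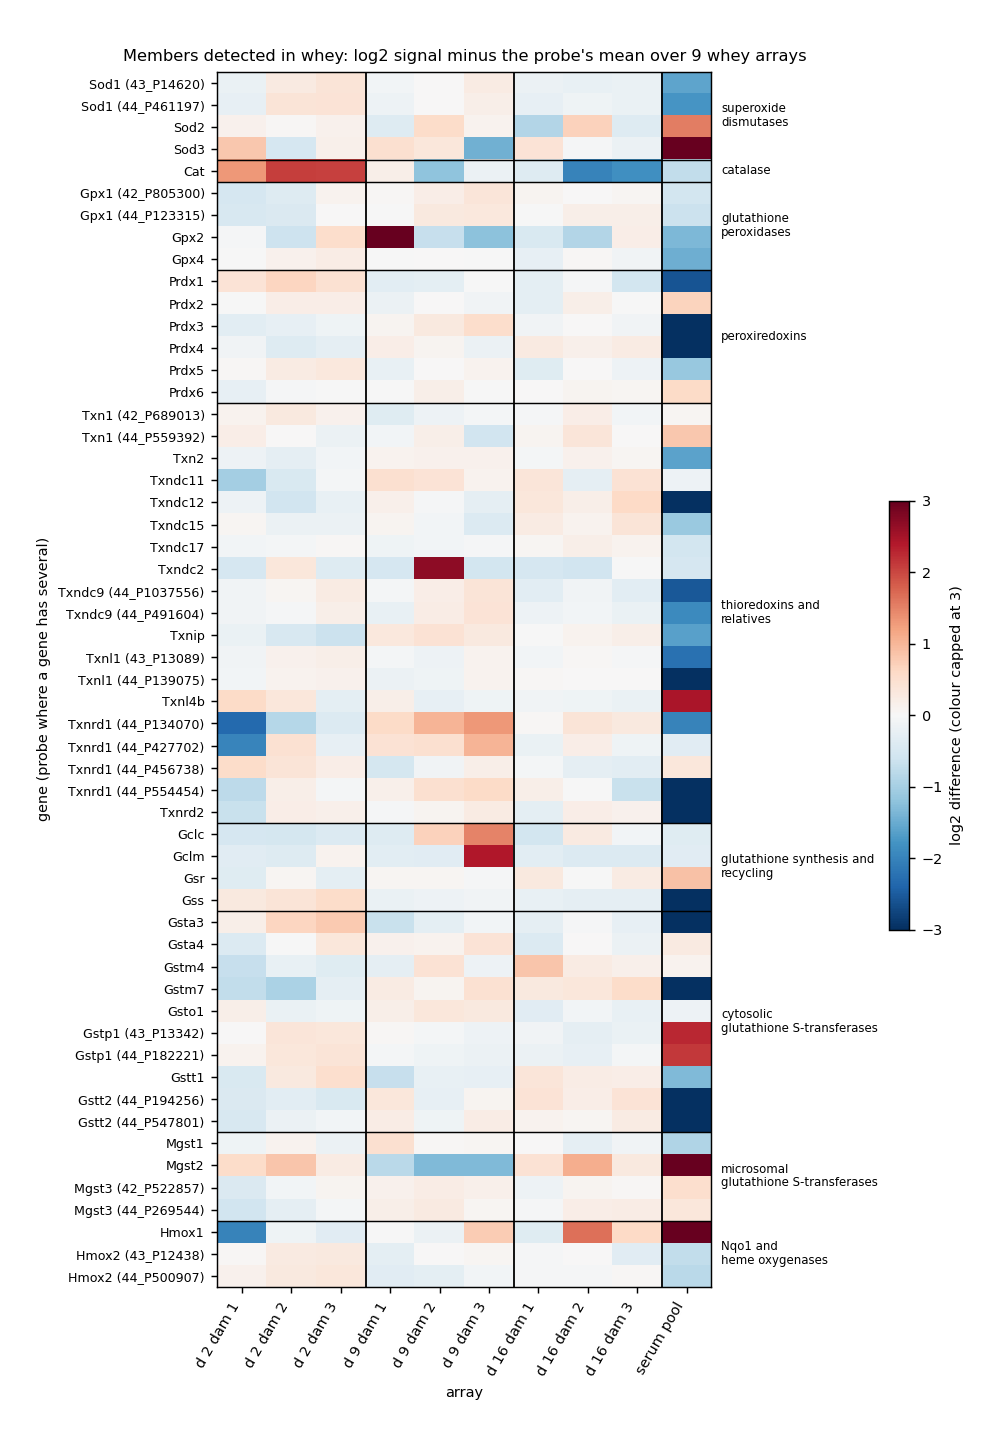
Colours give the log2 signal of each of the 55 member probes detected in whey minus its mean over the 9 whey arrays, by array (columns) and family (blocks of rows), and they include arrays on which a probe was not well above background. Cat is high on the 3 d 2 arrays, Mgst2 is low on the 3 d 9 arrays, and Gpx2, Txndc2 and Gclm each stand out on 1 d 9 array.

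To find which of these transcripts changed in the course of lactation, the days were set against each other in a limma fit of the 16849 probes detected in whey, and p was adjusted over all of these by Benjamini-Hochberg. From d 2 to d 9, 10 of 55 member probes changed (18.2%), 4 up (7.27%) and 6 down (10.9%), against 17.7% of all tested probes, 11.2% up and 6.46% down. From d 2 to d 16, 11 changed (20%), 6 up (10.9%) and 5 down (9.09%), against 28.5%, 16% up and 12.5% down. From d 9 to d 16, 1 rose and 0 fell (6 at an unadjusted p under 0.05), against 1.42% of all tested probes, 0.558% up and 0.861% down. The F test over the 3 days called 11 (20%), against 25.6%. Median log2 changes of the members were 0.14, -0.04 and -0.09 in that order, beside 0.11, 0.04 and -0.06 over all tested probes. No overlap between the dams of both days was found for 34.5%, 45.5% and 30.9% of the members, beside 38.8%, 48.2% and 29.4% of all tested probes. The share of members called lay near that of all probes from d 2 to d 9 and below it from d 2 to d 16, and single genes moved in either direction. In whey a change in the number of particles or cells that give a transcript and a change in its amount in each of them cannot be told apart.

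**Figure D2:**
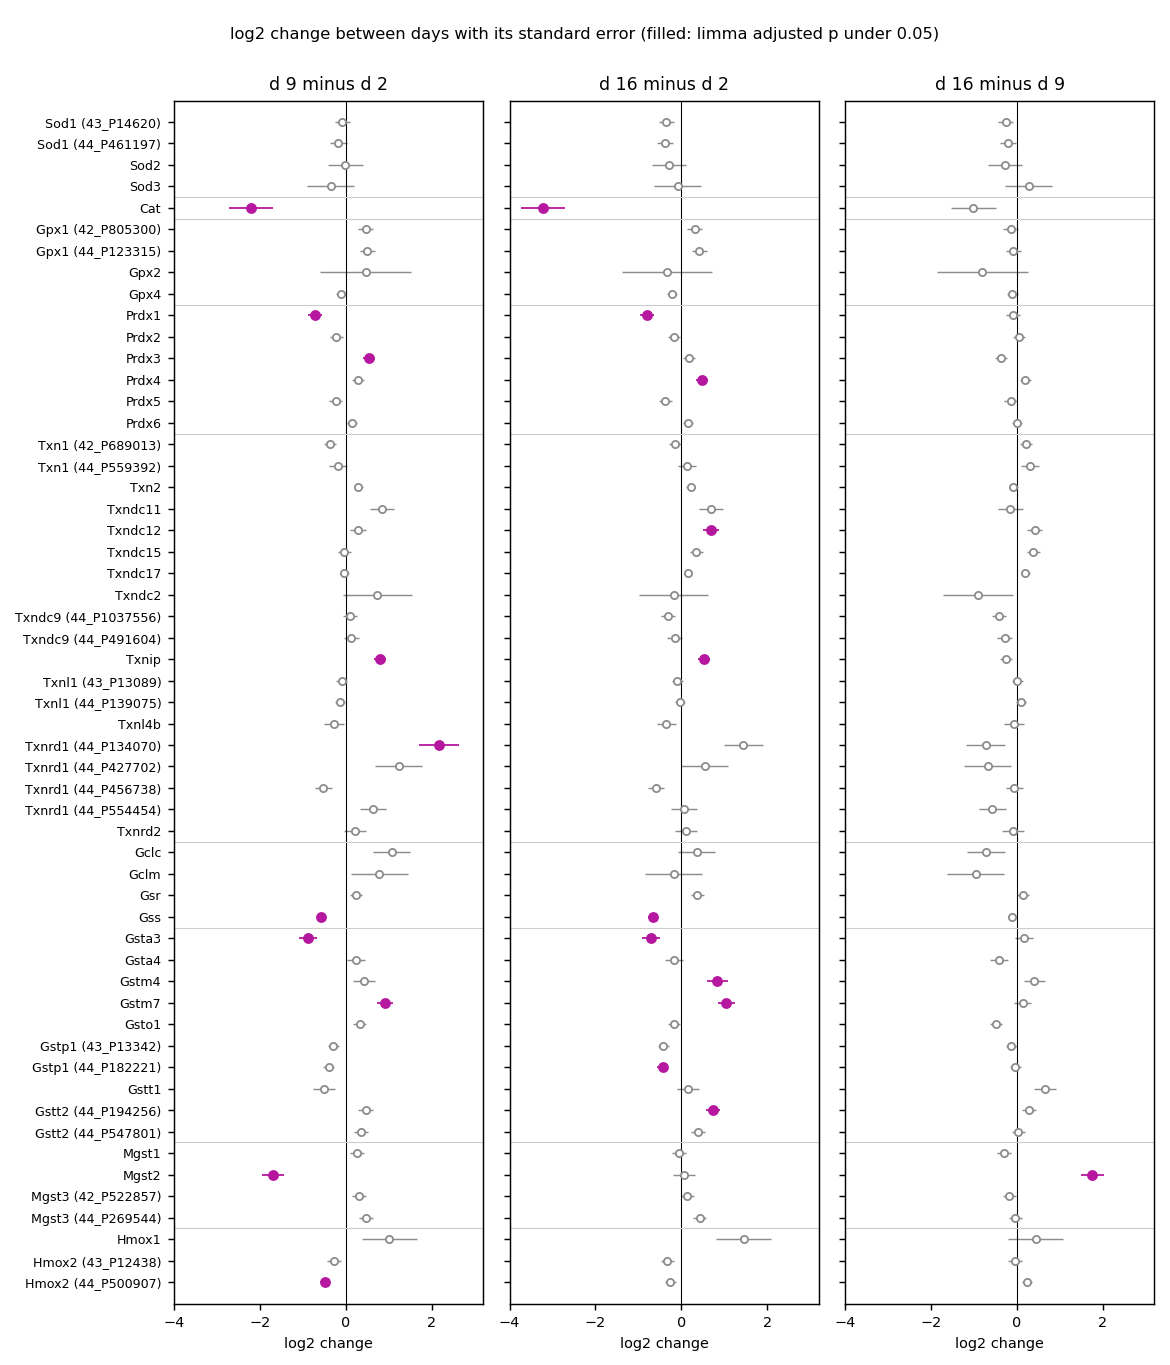
Points give the log2 change of each detected member probe between 2 days, bars its standard error from the limma fit, and filled points an adjusted p under 0.05, in the family order of the colour map. From d 2 to d 9 there are 10 filled points and from d 2 to d 16 there are 11, while from d 9 to d 16 Mgst2 is the filled point.

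Catalase fell furthest of the 55 detected probes after d 2. Cat read 6.77, 7.54 and 7.52 in dams 1, 2 and 3 on d 2, 5.64, 4.26 and 5.30 on d 9, and 5.08, 3.46 and 3.62 on d 16. The d 2 values lay above all later ones, dam 1 had the lowest d 2 value and the highest values on both later days, and the probe was well above background on all 9 arrays. Cat fell by 2.21 (SE 0.51, limma adjusted p = 0.0251) to d 9, a 4.62-fold decrease, and by 3.22 (SE 0.51, limma adjusted p = 0.00409) to d 16, a 9.32-fold decrease. With normexp background correction the changes were smaller, -1.09 to d 9 and -1.41 to d 16, and under spike-in scaling the change to d 9 was -0.80. The step from d 9 to d 16, -1.01, did not pass the test (limma adjusted p = 0.335). The fall to d 16 passed the test under all 20 alternatives in which it was computed, whereas that to d 9 passed under 13 of 21. It was lost without dam 2 or dam 3 of d 2 and without dam 2 or dam 3 of d 9. Within slide 2, where d 2 dam 3 stood against the 3 d 9 arrays, the difference was -2.45.

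None of the superoxide dismutase probes, which stand before catalase in the same pathway, passed the test. Sod1, the cytosolic enzyme, read 13.28, 13.74 and 13.87 on d 2, 13.40, 13.49 and 13.73 on d 9, and 13.30, 13.26 and 13.29 on d 16. The d 2 values overlapped with both later days, while the d 9 values all lay above those of d 16. The changes of this probe were -0.09 and -0.35 from d 2 to d 9 and d 16, with its other probe at -0.17 and -0.38. The mitochondrial Sod2 and the extracellular Sod3 had changes between -0.36 and -0.01 from d 2. The glutathione peroxidases, which also remove hydrogen peroxide, gave no call either. Gpx1, the cytosolic form, read 12.98, 13.09 and 13.58 on d 2, 13.52, 13.67 and 13.84 on d 9, and 13.55, 13.50 and 13.54 on d 16. Dams 1 and 2 were lower on d 2 than on both later days, while dam 3 of d 2 lay within the later values. Its change to d 9 was 0.46 (limma adjusted p = 0.105), and 0.50 (limma adjusted p = 0.0783) on the other probe. Gpx4, which reduces lipid peroxides in membranes, stood at -0.11 and -0.22.

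The peroxiredoxins moved in opposite directions. All 6 were well above background on all 9 whey arrays, 3 of them changed, and Prdx2, Prdx5 and Prdx6 had changes between -0.38 and 0.14 from d 2, none of which passed. Prdx1, a cytosolic peroxiredoxin, read 11.46, 11.69 and 11.52 on d 2, 10.73, 10.75 and 11.05 on d 9, and 10.75, 11.01 and 10.51 on d 16. Both later days lay below d 2 in all 3 dams. Prdx1 fell by 0.71 (SE 0.17, limma adjusted p = 0.0248) to d 9, a direction that turned under spike-in scaling (0.75), and by 0.80 (SE 0.17, limma adjusted p = 0.0107) to d 16. The first call was lost without dam 2 of d 2 or dam 1 or 2 of d 9, and the second held when any array was left out. Scaled to spike-in controls, Prdx1 changed by -0.31 to d 16. Prdx3, the mitochondrial form, read 10.25, 10.33 and 10.45 on d 2, 10.65, 10.86 and 11.10 on d 9, and 10.48, 10.59 and 10.47 on d 16. The d 9 values were the highest and did not overlap with either other day. Prdx3 rose by 0.53 (SE 0.14, limma adjusted p = 0.0386) to d 9, and this call was lost when any of 8 of the 9 arrays was left out, the exception being d 9 dam 1. Prdx4, the form of the endoplasmic reticulum, read 9.70, 9.42 and 9.54 on d 2, 10.003, 9.88 and 9.62 on d 9, and 10.07, 9.97 and 10.06 on d 16. Its d 16 values were all above the d 2 values, with a rise of 0.48 (SE 0.14, limma adjusted p = 0.0342), lost without dam 2 or 3 of d 2, without dam 2 of d 9 or without any array of d 16.

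In the thioredoxin group Txnip, which encodes a protein that binds and inhibits thioredoxin, showed the most stable change. It read 8.11, 7.82 and 7.65 on d 2, 8.62, 8.74 and 8.59 on d 9, and 8.29, 8.40 and 8.48 on d 16. The 3 days did not overlap, with d 9 highest and d 2 lowest. Txnip rose by 0.79 (SE 0.14, limma adjusted p = 0.0108) to d 9, a call that held under all 21 alternatives, and by 0.53 (SE 0.14, limma adjusted p = 0.028) to d 16, which was lost without dam 2 or 3 of d 2 or of d 16. Thioredoxin itself did not pass the test, with changes of -0.36 and -0.15 from d 2 for a Txn1 probe and of -0.18 and 0.14 for the other, which is listed on the opposite strand, and of 0.29 and 0.21 for the mitochondrial Txn2. Txndc12, a thioredoxin-fold protein of the endoplasmic reticulum, read 5.87, 5.44 and 5.80 on d 2, 6.19, 5.99 and 5.76 on d 9, and 6.37, 6.19 and 6.62 on d 16. Its 3 d 16 values lay above the 3 d 2 values, with a rise of 0.69 (SE 0.18, limma adjusted p = 0.0267), lost without dam 2 of d 2 or without dam 1 or 3 of d 16.

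Thioredoxin reductase 1, the enzyme that reduces thioredoxin, had 4 probes that did not tell the same story. The probe shown above, at -0.53 from d 2 to d 9 (limma adjusted p = 0.098), was well above background on all 9 whey arrays. A second probe, A_44_P134070, read 1.27, 2.75 and 3.21 on d 2, 4.19, 4.64 and 4.91 on d 9, and 3.65, 4.00 and 3.91 on d 16. It was well above background on no d 2 array, on 3 d 9 arrays and on 2 d 16 arrays, and its days did not overlap. The listed position of this probe covers 34 bases, fewer than the 60 of the oligonucleotide. By this probe the fitted change of Txnrd1 from d 2 to d 9 was 2.17 (SE 0.46, limma adjusted p = 0.0187), a call lost without dam 2 or dam 3 of d 9. Since no d 2 array showed this probe well above background, no fold is given. The other probes changed by 1.23 and 0.62, and neither passed. The latter, A_44_P554454, cleared background on 9 whey arrays, as many as the probe that fell. The former, A_44_P427702, is listed on the plus strand and the other 3 on the minus strand. A direction for Txnrd1 as a gene cannot be given from these probes, and its mitochondrial relative Txnrd2 stood at 0.21 and 0.12.

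**Figure D3:**
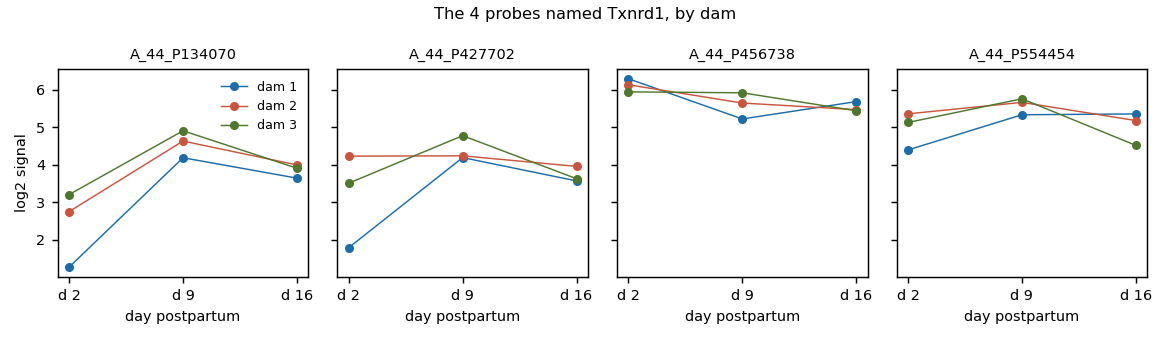
Points give the log2 signal of the 4 probes named Txnrd1 in each dam (colour) on d 2, d 9 and d 16. A_44_P134070 climbs from between 1.27 and 3.21 on d 2 to between 4.19 and 4.91 on d 9, while A_44_P456738 lies between 5.95 and 6.30 on d 2 and between 5.23 and 5.92 on d 9.

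Glutathione is built by the glutamate-cysteine ligase of Gclc and Gclm and then by glutathione synthetase, and Gss, which encodes the latter, fell in all dams. Gss read 7.88, 7.98 and 8.13 on d 2, 7.39, 7.42 and 7.47 on d 9, and 7.35, 7.31 and 7.31 on d 16. All later values lay close together and below every d 2 value. Gss fell by 0.57 (SE 0.11, limma adjusted p = 0.0129) to d 9, a direction that turned under spike-in scaling (0.94), and by 0.67 (SE 0.11, limma adjusted p = 0.00418) to d 16. Both calls held when any array was left out, and under spike-in scaling the change to d 16 was -0.09. Gsr, the reductase that restores oxidized glutathione, had changes of 0.23 and 0.37 that did not pass.

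Among the cytosolic glutathione S-transferases the alpha and pi members that changed fell, and the mu and theta members that changed rose, under quantile scaling (for Gsta3 to d 9 and Gstp1 to d 16 spike-in scaling gave the opposite sign). Gsta3, of the alpha class, read 13.70, 14.17 and 14.32 on d 2, 12.87, 13.24 and 13.46 on d 9, and 13.27, 13.50 and 13.28 on d 16. All later values lay below the d 2 values. Gsta3 fell by 0.87 (SE 0.21, limma adjusted p = 0.0287) to d 9, a direction that turned under spike-in scaling (0.62), and by 0.71 (SE 0.21, limma adjusted p = 0.0395) to d 16. With spike-in scaling the change to d 16 was -0.11. Left out in turn, 5 of the 9 arrays ended the first call (dams 2 and 3 of d 2, dams 1 and 2 of d 9, dam 3 of d 16) and 6 ended the second (dams 2 and 3 of d 2, dam 2 of d 9, all of d 16). Gstp1, the pi class enzyme, read 8.17, 8.39 and 8.44 on d 2, 7.99, 7.93 and 7.87 on d 9, and 7.88, 7.82 and 7.99 on d 16. The d 2 values lay above all others. It fell by 0.44 to d 16 (SE 0.12, limma adjusted p = 0.0293), a direction that turned under spike-in scaling (0.13), and its other probe, at -0.42, had an adjusted p of 0.0513 by limma. This call was lost without dam 2 or 3 of d 2 or without any array of d 16.

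Gstm7, of the mu class, read 5.65, 5.44 and 6.12 on d 2, 6.63, 6.46 and 6.85 on d 9, and 6.68, 6.72 and 6.93 on d 16. Each later value lay above every d 2 value. Gstm7 rose by 0.91 (SE 0.20, limma adjusted p = 0.0194) to d 9, lost without dam 2 of d 2 or dam 3 of d 9, and by 1.04 (SE 0.20, limma adjusted p = 0.00757) to d 16, a 2.06-fold increase that held when any array was left out. This rise to d 16 ranged from 0.51 to 1.68 over its 20 alternatives and passed the test under 19 of them. Gstm4, another mu class member, which was well above background on 2 of 3 d 2 arrays, read 3.90, 4.35 and 4.22 on d 2, 4.32, 5.01 and 4.43 on d 9, and 5.42, 4.83 and 4.74 on d 16. Its rise of 0.84 to d 16 (SE 0.25, limma adjusted p = 0.0421) was lost when any of 7 arrays was left out, all but dams 1 and 2 of d 9, and with the dam as a block (limma adjusted p = 0.0646, in a range of 0.0261 to 0.278 over its alternatives). Gstt2, of the theta class, read 6.98, 7.11 and 6.95 on d 2, 7.76, 7.16 and 7.49 on d 9, and 7.82, 7.61 and 7.83 on d 16. It rose by 0.74 to d 16 (SE 0.17, limma adjusted p = 0.0151), lost without dam 3 of d 16, while its other probe, at 0.38, did not pass (limma adjusted p = 0.108). The other cytosolic transferases with a detected probe, Gsta4, Gsto1 and Gstt1, had changes between -0.50 and 0.32 from d 2, none of which passed.

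Of the microsomal transferases, which sit in membranes, Mgst2 dipped on d 9 and came back. It read 4.73, 5.02 and 4.42 on d 2, 3.36, 2.86 and 2.85 on d 9, and 4.61, 5.27 and 4.46 on d 16, and was well above background on 3, 1 and 3 arrays in that order. The d 9 values lay below all others in every dam, and d 2 and d 16 overlapped. Mgst2 fell by 1.70 to d 9 (SE 0.26, limma adjusted p = 0.00696), a call that held when any array was left out, and rose by 1.75 from d 9 to d 16 (SE 0.26, limma adjusted p = 0.0296). The rise held when any of 3 arrays was left out (dams 1 and 3 of d 2, dam 1 of d 9) and was lost without any of the other 6. Both sizes depended on the processing, at -0.31 and 0.27 with normexp and -0.46 and 1.12 under spike-in scaling, and of these the fall with normexp passed the test. As 1 d 9 array showed the probe well above background, no fold is given. Mgst1 and Mgst3 had changes between -0.04 and 0.47 from d 2, none of which passed.

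The heme oxygenases break heme down to biliverdin, carbon monoxide and iron. Hmox2, the constitutive form, read 7.89, 8.06 and 8.10 on d 2, 7.43, 7.48 and 7.68 on d 9, and 7.74, 7.74 and 7.81 on d 16. The d 9 values were lowest and did not overlap with either other day. Hmox2 fell by 0.48 to d 9 (SE 0.12, limma adjusted p = 0.0303), a direction that turned under spike-in scaling (1.03), and its other probe, at -0.28, did not pass. The call was lost without dam 2 or 3 of d 2, dam 1 or 2 of d 9, or dam 2 or 3 of d 16. The inducible Hmox1 was well above background on 7 of 9 whey arrays and read between 1.97 and 5.63 in whey, and its changes of 1.01 and 1.45 did not pass.

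**Figure D4:**
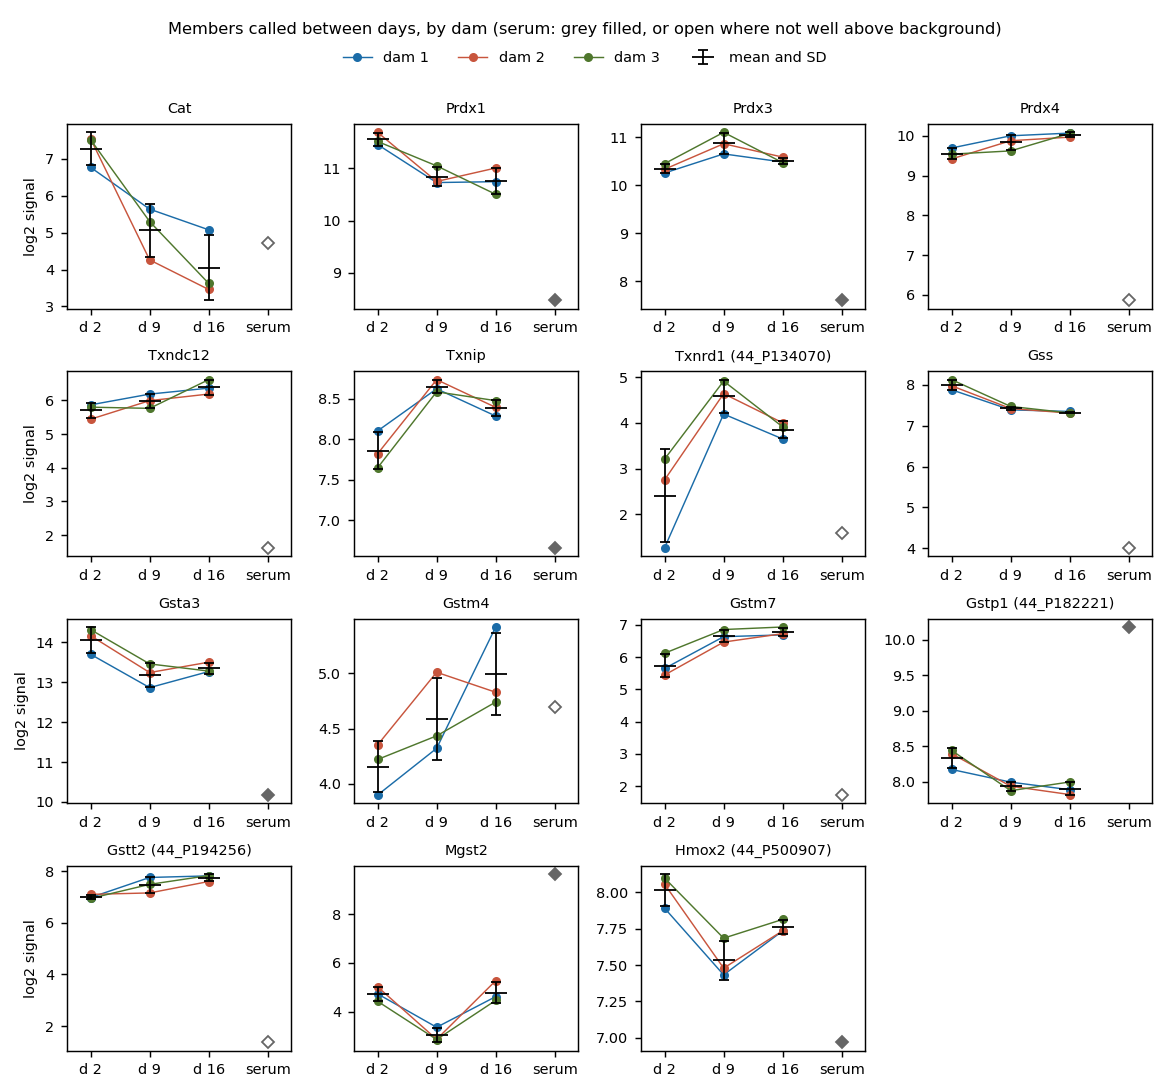
Each panel gives the log2 signal of a member probe that changed between days, by dam (coloured lines), with the mean and SD of the 3 dams (black) and the serum pool (diamond, open where not well above background). Cat, Prdx1, Gss and Gsta3 start highest on d 2, Gstm7, Txnip and Gstt2 start lowest, and Mgst2 and Hmox2 are lowest on d 9, directions given relative to quantile scaling.

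The number of calls moved with single arrays and with the slide. From d 2 to d 9, 4 member probes were called without d 2 dam 2, 4 without d 9 dam 2 and 6 without d 9 dam 3, while calls over all probes went from 2975 to 1551, 1255 and 2306. For d 16 against d 2, 5 were called without d 2 dam 2, 6 without d 16 dam 1, 6 without d 16 dam 2 and 4 without d 16 dam 3, while calls over all probes went from 4808 to 3281, 3617, 3123 and 2745. With the slide as a block, which leaves d 2 dam 3 against the d 9 arrays of slide 2, all 10 members called from d 2 to d 9 kept their direction, and of these Txnip passed the test (1.00, limma adjusted p = 0.0424, in a range of 0.000713 to 0.0457 over its alternatives). This fit called 499 of all tested probes. Scaled to spike-in controls, the median change of all tested probes became 1.52, 0.59 and -0.93, and the split of member calls from d 2 to d 9 became 25 up and 0 down, with 7072 of all tested probes called.

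Beside these genes, probes for cell type markers moved too. From d 2 to d 9, 0 of 10 mammary epithelium probes rose and 4, all of keratin genes, fell, and from d 2 to d 16, 3 rose and 3 fell. The macrophage probes of Csf1r, Cd163 and Marco were well above background on no whey array. Of 9 macrophage probes tested, 5 rose and 2 fell to d 9 and 7 rose and 2 fell to d 16. Their summed level, as log2, was 8.60 to 8.99 on d 2, 8.53 to 9.65 on d 9, 10.3 to 10.8 on d 16 and 13.1 in serum. The tested erythroid probe rose by 1.02 to d 9 and by 2.12 to d 16. To d 16, the lymphocyte probe of Cd3d rose by 1.84 and the platelet probe of Pf4 changed by -1.73. Of 4 neutrophil probes tested, 0 rose and 0 fell. The part of these markers in the changes of the antioxidant genes was not tested.

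Genes around the same pathways were counted beside the background already given, 11.2% up and 6.46% down of all tested probes to d 9, and 16% and 12.5% to d 16. Of 9 probes for Nrf2 and its regulators, 3 rose and 0 fell to d 9, namely Nfe2l2 by 0.99 (limma adjusted p = 0.0174) and both probes of Cul3, a subunit of the ligase that marks Nrf2 for breakdown, by 0.46 and 0.50. To d 16, 3 rose, both probes of Cul3 and 1 of Mafg, and Nfe2l2 stood at 0.14. Of 12 probes for enzymes that supply NADPH, 0 rose and 1 fell to d 9, and 3 fell to d 16, with Tkt, the transketolase of the pentose phosphate pathway, at -1.38 (limma adjusted p = 0.00371) and Idh2 at -1.07 and -0.51. Of 15 probes for other glutathione handling, 4 rose to d 9, and 4 rose and 2 fell to d 16. The glyoxalase Glo1 rose by 1.02 and 1.03 (limma adjusted p = 0.00147 and 0.000575) and the glutaredoxin Glrx1 by 1.14 and 1.59 (limma adjusted p = 0.0051 and 0.000711), while Oplah fell by 1.45 to d 16.

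Of 8 probes for the repair of oxidized protein, 2 rose to d 9 and 3 to d 16, with the methionine sulfoxide reductase Msra at 0.58 and 0.62, and 0 fell. Of 12 probes for selenoproteins and their synthesis, 1 rose to d 9, and 4 rose and 1 fell to d 16, with Selm at 1.66 (limma adjusted p = 0.000998) and 1.47 (limma adjusted p = 0.013) on its probes. Of 4 probes for heme breakdown and iron storage, 1 fell to d 16, Blvra, at -1.004. Of 6 tested probes for enzymes that make or use superoxide and hydrogen peroxide, 2 rose to d 9 and 3 to d 16, all for parts of the phagocyte NADPH oxidase, namely Cyba (limma adjusted p = 0.0101 and 0.00072), Ncf1 (0.0155 and 0.00122) and, to d 16, Ncf4 (2.78, limma adjusted p = 0.00756). Cyba and Ncf1 were well above background on 6 of the 9 whey arrays each, and no fold is given for them. Of the 9 macrophage probes tested, 7 rose and 2 fell to d 16, and a link between them and these 3 genes was not tested. Xdh, the xanthine oxidoreductase of milk fat globules, stood at 0.20 and 0.21 and did not pass.

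Because Nrf2 acts through the antioxidant response element, promoters were searched for its core, TGACNNNGC, on both strands, from 250 bases before to 50 after the RefSeq start of each gene (GRCr8). The core was found in 12.1% of all 33469 promoters, in 16 of 55 member promoters (29.1%), in 14 of 39 for members detected in whey (35.9%) and in 7 of 14 for members that changed between days. These 14 promoters belong to 12 genes, since Hmox2 and Txnrd1 have 2 starts each, 1 with the core and 1 without. Gstt2, Mgst2 and Txnip were not searched. The stretches before the start are shown for the changed members in which the core lies there, with the core in capitals.
Prdx1, chr5:135383755-135383795, plus strand: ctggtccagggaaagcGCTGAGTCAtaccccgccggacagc
Gstp1, chr1:210769742-210769782, minus strand: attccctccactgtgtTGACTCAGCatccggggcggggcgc
Hmox2, chr10:11337683-11337723, minus strand: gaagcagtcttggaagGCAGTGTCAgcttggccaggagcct
Txnrd1, chr7:22755958-22755998, minus strand: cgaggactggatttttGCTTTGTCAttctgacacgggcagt
Gstm7, chr2:198260320-198260349, minus strand: acagtcgaggctagatTGACACAGCctgtc
Genes with the core moved both ways, as Prdx1 and Gstp1 fell and Gstm7 rose to d 16 under quantile scaling (Gstp1 stood at 0.13 under spike-in scaling). The core is short, a match is no evidence of binding, and its absence from this window says nothing of sites farther away.

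Serum was compared with whey to see which of these transcripts stood higher in equal amounts of RNA from either fluid. With 1 serum array no test was possible. Among the 30 member probes well above background on all 10 arrays, 4 were more than 4-fold higher in whey (13.3%, against 8.61% of the 4635 such probes) and 4 more than 4-fold higher in serum (13.3%, against 17.5%). The largest differences toward whey were those of Gsta3 (3.36), Prdx3 (2.98), Prdx1 (2.58) and Txnl1 (2.24), a thioredoxin-like protein, followed by Sod1 (1.78). Gsta3 read 10.17 in serum and 12.87 to 14.32 in whey, so that every whey array lay above the pool. The largest differences toward serum were those of Sod3 (-3.69), the spliceosome protein gene Txnl4b (-2.46) and both Gstp1 probes (-2.25 and -2.13), followed by Sod2 (-1.54). All these differences are those of quantile scaling, and under spike-in scaling Txnl4b (0.95), the Gstp1 probes (1.2 and 1.56) and Sod2 (2.06) lay toward whey and Sod3 stood at -0.12. With normexp the order toward serum began with the Gstp1 probes (-2.07 and -1.70), and Sod3 came next at -1.56. Sod3 read 7.97 in serum and 2.83 to 5.08 in whey, and Gstp1 12.76 in serum and 10.25 to 10.88 in whey on probe A_43_P13342. As processed signal before normalization, Sod3 was 24.4 in serum and 11.3 to 43.2 in whey. In serum Txnl4b, Sod2 and Prdx3 had processed signals of 12.4, 16.8 and 19.5, below the 20 that the detection rule asks for.

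Counting all probes well above background in serum or on any whey array, 15 of 64 members were more than 4-fold higher in whey, against 27.2%, and 9 more than 4-fold higher in serum, against 15.8%. Mgst2, well above background on 1 d 9 array, read 9.63 in serum and 2.85 to 5.27 in whey. Prdx4, Gss, Gstm7, Txndc12, Txnrd2 and both Gstt2 probes exceeded background clearly on every one of the 9 whey arrays but not in serum. Among the 30 probes, the split at 4-fold depended on scaling. It was 10 to whey and 1 to serum with the 75th percentile, and 26 and 0 with spike-in controls, under which all such probes shifted by a median of 3.70 toward whey. The erythroid markers summed to 18.5 on the log2 scale in serum and 6.06 to 8.22 in whey, and the platelet markers to 16.5 and 4.17 to 5.90. Their part in the differences was not tested.

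**Figure D5:**
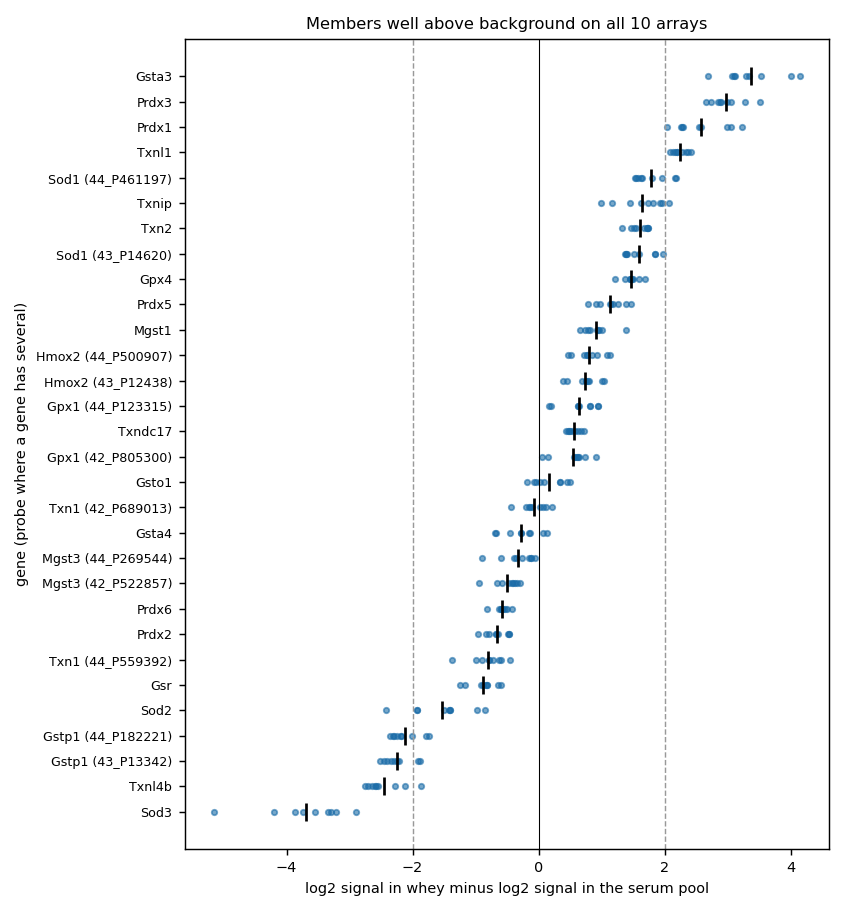
Points give, for each of the 30 member probes well above background on all 10 arrays, the log2 signal of the 9 whey arrays minus that of the serum pool, with their mean as a bar and dashed lines at 4-fold. Gsta3, Prdx3, Prdx1 and Txnl1 lie past the line to the right and Sod3, Txnl4b and Gstp1 past that to the left, under quantile scaling.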

How the data were processed

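Total RNA of whey and serum (100 ng per array) was amplified, labelled with cyanine 3 and hybridized by the authors to 1-colour Agilent whole rat genome arrays. The deposited processed signal is an intensity made with Feature Extraction 9.5.3.1, with local background subtracted and spatial trends removed, and is not normalized between arrays. Mean spot and median background intensity, also deposited, entered one alternative. A deposited table of quantile normalized values has 10 columns that match no sample label and was not used.

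Groups and dams were taken from the sample titles. Non-control spots were log2 transformed, outlier spots left out, all arrays quantile normalized (as in the study's methods) and spots of a probe averaged, in R 4.3.3 with limma 3.58.1. Days were compared on the 9 whey arrays with lmFit and eBayes (two-sided, Benjamini-Hochberg, threshold 0.05), which was also tested on simulated data. P-values come from this fit unless an alternative is named. Dams 1 to 3 are the same animals on each day, and deviations of the same dam correlated with r of -0.018 to 0.218 between days, so the fit with the dam as a block was run as well. Genes named were those with a probe past the threshold, the brightest detected member of families without one, and the 5 largest differences from serum each way. The members and gene lists were chosen with earlier results of these data known. Of 81 member probes, 74 matched RefSeq (GRCr8) by accession. Alternatives were other scaling, background correction and filters, slide or dam as a block, Tukey-Kramer tests and leaving out each array.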

Additional observations from a re-analysis of the deposited data

How the results depend on the processing

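The count of 10 member probes called from d 2 to d 9 became 6 with 75th percentile scaling, 25 with spike-in scaling, 17 with normexp, 1 with the slide as a fixed block, 5 with only these days in the fit and 4 with the Tukey-Kramer test after Benjamini-Hochberg, and lay between 4 and 11 when an array was left out. From d 2 to d 16 the 11 calls became 1 with spike-in scaling and 5 with the adjusted Tukey-Kramer test, and 4 to 14 without an array. The single call from d 9 to d 16 became 0 with spike-in scaling, without the detection filter, with the filter that asks for all 9 whey arrays, with a minimum signal of 100, with only these days and with the adjusted Tukey-Kramer test, 3 with normexp (without Mgst2) and with the unadjusted Tukey-Kramer test, and 0 to 1 without an array. The 11 calls of the F test became 7 with spike-in scaling, 23 with normexp and 17 with a minimum of 100, and 3 to 13 without an array. Over all tested probes (16849 unless given) the same settings moved the counts as well. The 2975 calls from d 2 to d 9 became 2894 with the 75th percentile, 7072 with spike-in scaling, 3441 with normexp, 499 with the fixed slide block, 1598 with only these days and 1287 with the adjusted Tukey-Kramer test. The 4808 calls from d 2 to d 16 became 764 with spike-in scaling and 2678 with the adjusted Tukey-Kramer test. The 239 calls from d 9 to d 16 became 159 with spike-in scaling, 869 with normexp, 133 of 41012 without the detection filter, 525 of 9820 with the filter on all 9 arrays, 608 of 9605 with the minimum of 100, 158 with only these days, and 2040 and 0 with the Tukey-Kramer test before and after adjustment. Those of the F test, 4316, became 2864 with spike-in scaling, 5149 with normexp and 4282 of 9605 with the minimum of 100. Detected members numbered 53 to 55 without an array. Against serum, the 4 probes higher in whey became 10 with the 75th percentile, 26 with spike-in scaling and 15 with the wider filter, and the 4 higher in serum became 1, 0 and 9, and 1 with normexp. Over all 4635 probes compared there, 399 lay higher in whey and 812 in serum, which became 1015 and 502 with the 75th percentile, 3618 and 60 with spike-in scaling, and 5755 and 3344 of 21154 with the wider filter, and 344 were higher in serum with normexp. Spike-in scaling turned Hmox2 (1.03), Gsta3 (0.62), Gss (0.94) and Prdx1 (0.75) from d 2 to d 9 and Gstp1 (0.13) from d 2 to d 16, with a limma adjusted p of 0.184 to 0.941. In place of the called Txnrd1 probe, A_44_P456738 gave -0.53 from d 2 to d 9 and A_44_P554454 gave 0.62. Both cleared background on 9 whey arrays. With the dam as a replicate block the counts were 10, 12 and 1, and of the 22 calls the block ended that of Gstm4 from d 2 to d 16 (0.84, limma adjusted p = 0.0646) and no other. The cause was not tested. Dim probes limit what can be said of Gclc, Gclm, Nqo1 and Txnrd1.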
